A study of Mus musculus with 12 samples.

Results

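The genes described here encode the nuclear part of the mitochondrial respiratory chain and of the ATP synthase. They are the 72 genes (100 of the 12488 probe sets on the array) whose only annotated symbol begins with Nduf, Uqcr, Cox4 to Cox8 or Atp5, or is Sdha, Sdhb, Sdhc, Sdhd, Cyc1 or Cycs. Atp5o, which lies in the segment that is trisomic in Ts1Cje mice, was left out by this rule. By complex they fall into 31 genes of complex I, 4 of complex II, 8 of complex III, cytochrome c itself, 15 of complex IV and 13 of complex V. The rule works on names, so Ndufaf1 and Ndufaf4, which are assembly factors rather than subunits, count with complex I. Symbols shared by several genes were not used: 10 probe sets of this kind, among them those for Cox7c and Ndufs5, were not counted.

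RNA came from whole cerebella of euploid mice and of Ts1Cje mice at P0, P15 and P30, that is 0, 15 and 30 days after birth. In Ts1Cje mice a distal segment of mouse chromosome 16 is present in 3 copies, as a model of Down syndrome (trisomy of human chromosome 21). Each of the 6 groups of 1 genotype at 1 stage was a single pool of RNA from 3 cerebella, except euploid P30 with 2, and each pool was hybridised to 2 arrays. The pool was therefore the replicate, and the pair of arrays of a pool shows hybridisation error alone. The labels name no strain background, sex or treatment. In a whole tissue, a change in the number of cells of a type and a change in the RNA per cell cannot be told apart.

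The respiratory chain passes electrons from NADH through complex I, and from succinate through complex II, to complex III, then by cytochrome c to complex IV, which reduces oxygen. Complexes I, III and IV pump protons out of the mitochondrial matrix, and complex V, the ATP synthase, makes ATP as the protons flow back. Neurons depend on this supply for ion pumping, and the weeks after birth are the time in which cerebellar granule cells are born, migrate and form synapses, while Purkinje cells extend their dendrites.

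A gene was represented by its brightest probe set. Of the 72 genes, 65 had a mean signal of at least 20.1 and were tested among 7453 probe sets, while Ndufa1, Ndufa12, Ndufc2, Cox5a, Cox7a1, Cox8a and Atp5j2 lay below that level. All but 2 of the 65 genes had a pool mean above the filter in every pool; the exceptions were Ndufs4 and Cox6a2. The median difference between the 2 hybridisations of a pool was 0.148 on the log2 scale for these genes and 0.206 for all tested probe sets. Differences are given on the scale log2(signal + 4.6), with the standard error of limma, and a gene is called at a Benjamini-Hochberg adjusted p under 0.05 over all 7453 probe sets.

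The tissue matched its label and matured over the series. The summed signal of 5 of 5 markers of mature granule cells was 445 to 590 in the P0 pools, 3890 to 5530 in the P15 pools and 5500 to 6160 in the P30 pools. That of the myelin markers, 6 of 7 of which passed the filter, was 151 to 190 at P0 and 5790 to 6410 at P15, and that of 8 of 8 markers of immature neurons fell from 16300 to 19300 at P0 to 3520 to 3810 at P30. Of the defining markers, Gabra6 (granule cells) and Mog (myelin) lay at 0.4 to 2.6 at P0. The respiratory chain values below moved in the same pools, and the part of cell composition in them was not tested. Median signals of the 12 arrays were 30.4 to 36.2. For the actin controls, 3' over 5' signal was 1.13 to 1.43 on the other arrays and reached 1.55 and 1.67 in the Ts1Cje P30 pool.

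From P0 to P15 a set of respiratory chain genes from complexes I, II, III and V and cytochrome c rose, and most of the others had small differences in the same direction that did not pass the test. The median difference of the 65 genes was 0.27, or 1.2-fold, while that of all tested probe sets was -0.03. A difference above 0 was found for 57 of 65 genes (87.7%), against 47.1% of all tested probe sets. By the test, 13 of 65 genes (20%) were called higher and 0 lower, where 13.6% of all tested probe sets were called higher and 14.4% lower. The share called higher was thus near the background. This count rested on single pools: it was 4 without the euploid P0 pool, 7 without the Ts1Cje P0 pool and 7 (6 higher and 1 lower) without the Ts1Cje P15 pool. It was also 7 without the first hybridisation of the pools.

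In complex III, 4 of 8 tested genes were called, and the median was 0.41. Uqcr11, a small subunit of complex III, gave 261 and 298 in the euploid pool at P0, 531 and 562 at P15, and 480 and 398 at P30. In the Ts1Cje pools it gave 240 and 295, then 538 and 535, then 444 and 369. All 4 arrays of P15 lay above all others, and all 4 of P0 lay below, so the stages did not overlap in either genotype. The difference was 0.98 ± 0.14 (limma, adjusted p = 0.00119), or 1.97-fold, and it was called in all 15 settings tried. The other complex III calls were Uqcrh, the hinge protein that contacts cytochrome c1 (0.54 ± 0.14), Uqcr10 (0.54 ± 0.14) and Uqcrq (0.47 ± 0.12), called in 11, 12 and 10 of 15 settings. Uqcrq was 0.31 without the second hybridisation of the pools (limma, adjusted p = 0.174). Cyc1, which is cytochrome c1, gave 0.28 ± 0.12 (limma, adjusted p = 0.113), and the core subunits Uqcrc1 and Uqcrc2 were not called (0.15 ± 0.21 and -0.06 ± 0.20).

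Cytochrome c, the soluble carrier between complexes III and IV, was among the genes that rose. Cycs gave 115 and 69.0 at P0, 230 and 155 at P15, and 104 and 140 at P30 in the euploid pools. In the Ts1Cje pools its signal was 113 and 83.8, then 188 and 115, then 82.2 and 108. The P15 arrays were above the P0 arrays of the same genotype in both genotypes, and the hybridisations of a pool differed widely. The difference was 0.81 ± 0.18 (limma, adjusted p = 0.0108), and it was lost in 1 of 15 settings, without the euploid P0 pool (adjusted p = 0.0769 by limma).

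In complex I, 5 of 28 tested genes were called, all of them accessory subunits, and the median was 0.27. Ndufb3, in the membrane arm, gave 383 and 427 at P0, 609 and 520 at P15, and 547 and 561 at P30 in the euploid pools. In the Ts1Cje pools it gave 289 and 387, 668 and 621, and 303 and 475. The P15 arrays were above the P0 arrays in both genotypes (0.70 ± 0.19; limma, adjusted p = 0.0229), whereas at P30 the euploid arrays stayed near their P15 level and the Ts1Cje arrays were back near P0. Ndufb3 was called in 11 of 15 settings: the call was lost without either P0 pool, without the first hybridisation of the pools and without the Ts1Cje P15 pool, where the difference was 0.40 (limma, adjusted p = 0.14). The other calls were Ndufs4 (0.82 ± 0.22), a dim probe set with 15.2 to 49.1 signal units, Ndufa2 (0.59 ± 0.15), Ndufc1 (0.57 ± 0.16) and Ndufa13, also known as GRIM-19 (0.56 ± 0.15). Ndufs4 was called in 10 of 14 settings, and Ndufa2, Ndufc1 and Ndufa13 in 12, 11 and 12 of 15. The measured core subunits Ndufs1, Ndufs3, Ndufv1 and Ndufv2, which carry or surround the path of electrons, were not called between P0 and P15. The lowest value was that of the assembly factor Ndufaf4 (-0.53 ± 0.20; limma, adjusted p = 0.0775).

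Complex V gave 2 calls among 12 tested genes, with a median of 0.27. Atp5j, coupling factor 6 in the stalk of the enzyme, gave 515 and 584 at P0, 879 and 942 at P15, and 936 and 759 at P30 in the euploid pools. The Ts1Cje pools gave 576 and 635, 833 and 950, and 849 and 721. All 4 arrays of P0 lay below the other 8, and the difference at P15 was 0.64 ± 0.13 (limma, adjusted p = 0.00845), not called without the euploid P0 pool. Atp5md, a small membrane subunit, was the other call (0.41 ± 0.12), and it was made in only 7 of 15 settings. The alpha subunit, Atp5a1, and the gamma subunit of the rotor, Atp5c1 (0.37 ± 0.12; limma, adjusted p = 0.0584), were not.

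In complex IV, 0 of 12 tested genes were called by limma and 3 with an unadjusted p under 0.05 (39.9% of all tested probe sets), and a median of 0.20. Cox6a1, Cox5b and Cox7a2, ubiquitous subunits with bright probe sets, had differences in the same direction as the other complexes without passing the test. Cox7a2l, a factor that joins complexes III and IV into supercomplexes, ran the other way. It gave 457 and 429 at P0, 282 and 267 at P15, and 369 and 341 at P30 in the euploid pools, and 398 and 377, 347 and 338, and 311 and 298 in the Ts1Cje pools. All 4 arrays of P0 were above all 8 later arrays, the only case among the 65 genes (1.54%, against 15.2% of all tested probe sets), yet the P15 difference of -0.43 ± 0.17 was not called (limma, adjusted p = 0.0993). The muscle isoforms Cox7a1, Cox8b and Cox6a2 were dim (highest array 14.5, 62.7 and 45.4), and 6 of 20 markers of muscle passed the filter, with a summed signal of 289 to 461. The ubiquitous Cox8a, Cox5a and Cox6b1 were dim too (mean signal 4.43, 10.8 and 29.4), so signals of different probe sets do not rank the isoforms.

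Complex II, which also serves the citric acid cycle, had 1 call among 4 tested genes and the lowest median of the complexes at P15 against P0, 0.00. Sdha, its flavin-binding catalytic subunit, gave 102 and 81.5 at P0, 141 and 99.5 at P15, and 195 and 227 at P30 in the euploid pools, and 66.3 and 58.5, 144 and 136, and 178 and 169 in the Ts1Cje pools. The 4 arrays of P30 lay above all others, and the pool means of each genotype increased at each step. Sdha was 0.74 ± 0.20 higher at P15 than at P0 (limma, adjusted p = 0.0269) and 1.29 ± 0.20 higher at P30 than at P0 (limma, adjusted p = 0.00135), the largest stage difference of any of the 65 genes. The P30 call held in 15 of 15 settings and the P15 call in 12. The P15 difference was 0.49 without the Ts1Cje P0 pool (limma, adjusted p = 0.18) and 0.42 without the Ts1Cje P15 pool (limma, adjusted p = 0.183), and the call was also lost without the first hybridisation of the pools. Its partners Sdhb, Sdhc and Sdhd gave -0.02 ± 0.16, 0.03 ± 0.13 and -0.03 ± 0.19 at P15 against P0, and 0.16 ± 0.16, 0.10 ± 0.13 and -0.05 ± 0.19 at P30 against P0. A test between the subunits was not run.

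**Figure D1:**
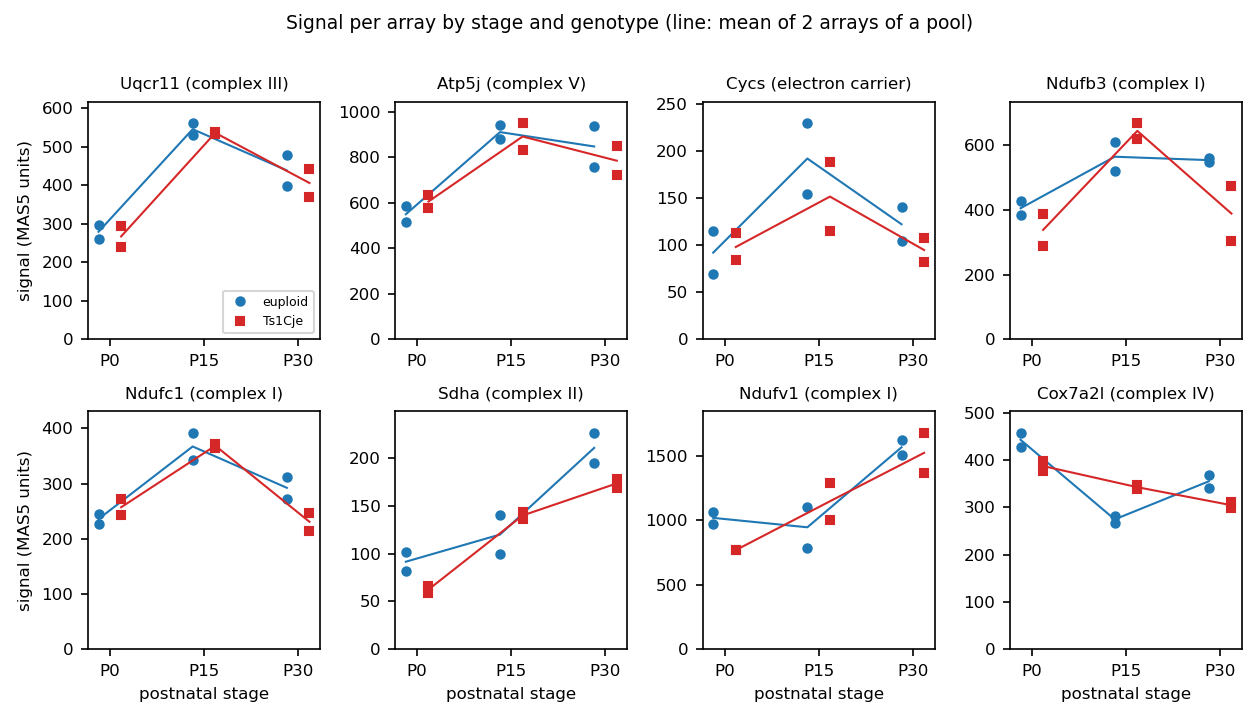
Signal of 8 respiratory chain genes in MAS5 units (vertical axis from 0) at P0, P15 and P30, with circles for the 2 arrays of each euploid pool, squares for those of each Ts1Cje pool, and lines through the pool means. Uqcr11, Atp5j, Cycs, Ndufb3 and Ndufc1 are lowest at P0 or P30 and high at P15, Sdha and Ndufv1 are highest at P30, and Cox7a2l is highest at P0.

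Between P15 and P30 none of the 65 genes was called by limma, where 4.74% of all tested probe sets were, and 13 had an unadjusted p under 0.05 (21.6% of all tested probe sets). The median was -0.03, against 0.06 for all tested probe sets. The differences of largest size were in Cycs (-0.62 ± 0.18; limma, adjusted p = 0.0956), Ndufv1 (0.58 ± 0.17), Sdha (0.55 ± 0.20) and Ndufc1 (-0.50 ± 0.16). By complex the medians were 0.02 for complex I, 0.12 for complex II, -0.19 for complex III, 0.02 for complex IV and -0.11 for complex V. Leaving out the euploid P0 pool or the Ts1Cje P15 pool gave 2 calls.

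Over the whole period, 11 of 65 genes (16.9%) were called higher at P30 than at P0 and 0 lower, where 19.4% of all tested probe sets were called higher and 19.6% lower. The median was 0.17, against 0.04 for all tested probe sets, and 51 of 65 genes were above 0 (52.5% of all tested probe sets). The called genes were Ndufa13, Ndufa2, Ndufa6, Ndufb10, Ndufb9 and Ndufv1 of complex I, Sdha, Uqcr11, Uqcrh, Atp5j and Atp5l, the last being a membrane subunit of the ATP synthase. Ndufa6 was called in only 5 of 15 settings, Atp5l in 8, Ndufb9 and Uqcrh in 9, Atp5j in 10, Ndufb10 in 11 and Ndufa13, Ndufa2 and Uqcr11 in 12. Without the first hybridisation of the pools, the differences of Atp5l, Ndufa13, Atp5j and Uqcr11 were 0.18, 0.44, 0.28 and 0.37, and none of these 4 was called. Ndufv1, which holds the flavin at which NADH is oxidised, gave 970 and 1064 at P0, 787 and 1101 at P15, and 1623 and 1505 at P30 in the euploid pools, and 765 and 770, 1003 and 1288, and 1675 and 1367 in the Ts1Cje pools. Its 4 arrays of P30 were above all 8 others (0.80 ± 0.17; limma, adjusted p = 0.00644), and the call was lost in 1 of 15 settings, without the Ts1Cje P0 pool. The count fell to 2 without either P30 pool (the euploid or the Ts1Cje one), to 5 without the Ts1Cje P0 pool, to 7 without the euploid P0 pool and to 3 without the first hybridisation of the pools. A second probe set for Cyc1 was called (0.43 ± 0.14; limma, adjusted p = 0.0416) while the brighter one was not (0.13 ± 0.12).

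**Figure D2:**
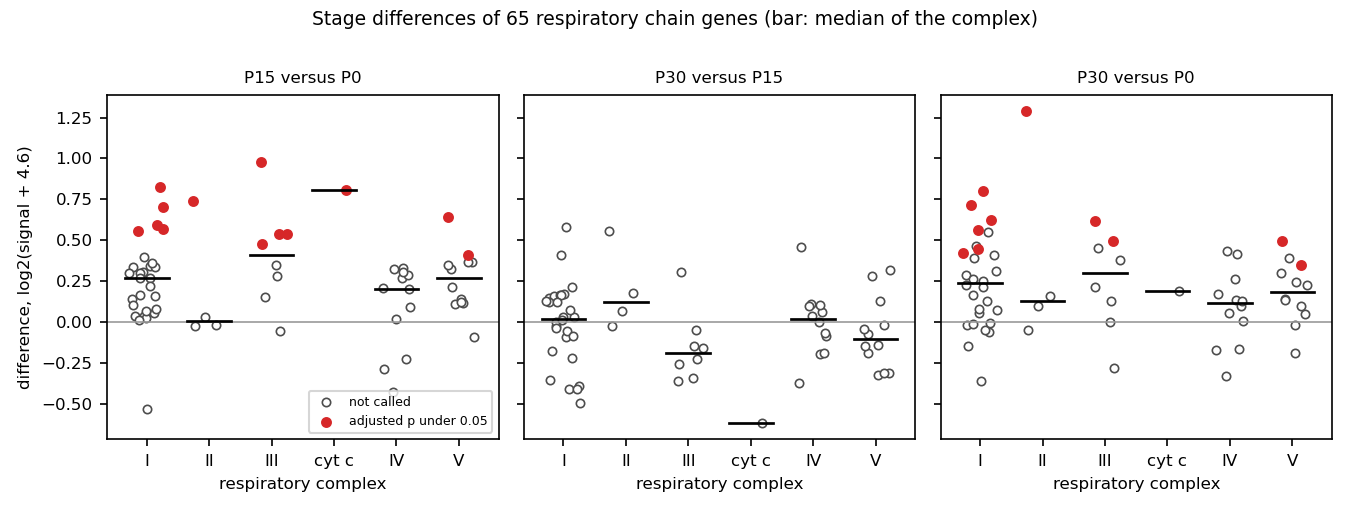
Differences in log2(signal + 4.6) of the 65 tested genes (1 circle each) between stages over both genotypes, by respiratory complex, with bars at the median of each complex and filled circles where the adjusted p of limma was under 0.05. At P15 against P0 the 13 filled circles all lie above 0 and none is in complex IV, at P30 against P15 there is none, and at P30 against P0 Sdha stands highest at 1.29.

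A peak at P15 was common in this group. The P15 pool was the highest of the 3 stages in both genotypes for 22 of 65 genes (33.8%), where this held for 9.16% of all tested probe sets. All 4 arrays of P15 exceeded all 8 others for 7 genes (10.8%, against 2.36%), namely Ndufb6, Ndufc1, Uqcr11, Uqcrb, Cox6c, Atp5c1 and Atp5md, which span complexes I, III, IV and V. The probe sets of Uqcrb, Cox6c and Atp5md are of a class (suffix f) whose probes can match related sequences. Ndufc1 gave 245 and 226, 392 and 343, and 312 and 272 at P0, P15 and P30 in the euploid pools, and 242 and 272, 365 and 372, and 215 and 247 in the Ts1Cje pools. Cox6c, with the smallest P15 minus P0 difference of these 7, gave 2104 and 1578, 2214 and 2222, and 1628 and 1766 in the euploid pools, and 2189 and 1925, 2232 and 2250, and 1711 and 1765 in the Ts1Cje pools, so its P15 arrays were above the others by a margin smaller than the gap between the P0 hybridisations. The pattern was counted more often in the Ts1Cje pools alone (41 genes, against 19.6% of all tested probe sets) than in the euploid pools alone (28 genes, against 24.0%); the difference between genotypes was not tested. Without the second hybridisation of the pools the count in both genotypes was 14, where 11.4% of all tested probe sets showed it. The Ts1Cje P15 pool was also the one with Xist signal (106 and 77.6, against 1.4 to 6.7 in the other pools), and its part in the pattern was not tested.

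Conversely, 4 genes had all P30 arrays above the rest (Ndufa6, Ndufb9, Ndufv1 and Sdha; 6.15%, against 7.76%), and 9 had all P0 arrays below the rest (13.8%, against 13.4%). Both shares were near the background.

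The upstream sequences of the member genes, called or not, were examined for letters bound by the regulators best known for respiratory genes. These were NRF1, GABP (also called NRF2), YY1 and the oestrogen-related receptors. RefSeq windows (GRCm38.p6) from 250 bases before to 50 bases after the annotated start were held for 58 of the 72 genes and for 27025 genes in all, and both strands were searched. The 27025 genes were not limited to those tested here, unlike the probe sets behind the other shares. The NRF1 motif, GCGCN followed directly by TGCGC, was present in 11 of 58 windows (19%), against 5.19% of all genes. The GABP motif CCGGAAG was present in 16 (27.6%, against 9.93%), the YY1 motif AAGATGGCG in 5 (8.62%, against 1.64%) and the ERR motif TCAAGGTCA in 1 (1.72%, against 0.466%). Among the 11 genes called higher at P15 that have a window and were examined by sequence, 1 held the NRF1 motif (Sdha), 4 the GABP motif (Atp5j, Atp5md, Uqcr11 and Uqcrh), 3 the YY1 motif (Atp5j, Ndufc1 and Ndufs4) and 0 the ERR motif. Of the other 40 tested genes with a window the counts were 10, 11, 1 and 1. Those 40 include genes called only at P30 against P0, such as Ndufa6 and Atp5l. A match of letters is a description of the window and no evidence of binding.

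Sequences follow for 4 of the genes called higher at P15. Each is given as the bases before its start, 5′ to 3′ on the gene's strand, trimmed where a neighbouring gene begins. They were not chosen by size of difference: Ndufs4 (0.82) and Ndufb3 (0.70), without a match in this stretch, are not shown. Of the 11 genes examined, only Uqcr11, Uqcrh and Sdha had a match in this stretch. All 4 genes shown lie on the minus strand, and capitals mark a match to the NRF1 or the GABP motif. Uqcr11 is at chr10:80406822-80407071, with its GABP letters 66 to 60 bases before the start. Uqcrh is at chr4:116075071-116075268, with the GABP letters on the other strand 10 to 4 bases before the start and Lrrc41 beyond the stretch. Sdha is at chr13:74350241-74350316, with NRF1 letters on the other strand 55 to 46 and 10 to 1 bases before the start, and Ccdc127 beyond the stretch. Cycs, at chr6:50566570-50566642, has none of the motifs in the 73 bases shown.
Uqcr11: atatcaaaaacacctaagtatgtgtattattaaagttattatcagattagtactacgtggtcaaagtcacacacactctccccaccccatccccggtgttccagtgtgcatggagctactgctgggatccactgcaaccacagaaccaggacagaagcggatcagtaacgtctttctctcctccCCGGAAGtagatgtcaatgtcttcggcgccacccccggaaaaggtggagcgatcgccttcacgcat
Uqcrh: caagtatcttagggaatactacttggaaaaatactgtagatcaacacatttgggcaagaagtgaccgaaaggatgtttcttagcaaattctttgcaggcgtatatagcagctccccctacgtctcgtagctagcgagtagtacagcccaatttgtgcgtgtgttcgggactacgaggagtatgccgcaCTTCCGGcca
Sdha: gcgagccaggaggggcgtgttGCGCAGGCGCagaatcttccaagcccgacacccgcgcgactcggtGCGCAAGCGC
Cycs: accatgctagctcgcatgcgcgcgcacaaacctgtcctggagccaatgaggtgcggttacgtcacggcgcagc
Of the 11 genes called higher at P15 and examined by sequence, 7 had another gene within the 250 bases before the start. Atp5j is the neighbour of Gabpa, which encodes the DNA-binding subunit of GABP, on mouse chromosome 16. Gabpa gave 66.5 and 35.1, 112 and 73.4, and 35.8 and 62.1 in the euploid pools and 81.8 and 77.5, 83.4 and 50.5, and 37.2 and 47.7 in the Ts1Cje pools, without the P0 low point of Atp5j.

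Among genes of the pathways that feed the chain, calls between P0 and P15 were mostly higher, beside 13.6% higher and 14.4% lower among all tested probe sets. At P30 against P0 the shares of all tested probe sets were 19.4% higher and 19.6% lower. Of 15 tested genes of the citric acid cycle and pyruvate dehydrogenase, 4 were called higher at P15 than P0 and 0 lower (median 0.37), among them Ogdh (0.76 ± 0.14), the oxoglutarate dehydrogenase, and Suclg1 (0.68 ± 0.14), a subunit of succinyl-CoA ligase. Cs, the citrate synthase, and Suclg2, another succinyl-CoA ligase subunit, were below 0 and not called (-0.30 ± 0.16 and -0.39 ± 0.18). At P30 against P0, 5 were called higher and 0 lower. Of 14 tested genes of glycolysis, 7 were called higher and 1 lower at P15, and 8 higher and 3 lower at P30 against P0, with a median of 0.99. Those include Aldoc (2.04 ± 0.20 at P15), the brain aldolase, and Eno2 (1.82 ± 0.16), the neuronal enolase. Hk1, a hexokinase, went the other way (-0.90 ± 0.20), and so did Ldha at P30 against P0 (-0.68 ± 0.18) while Ldhb rose (1.78 ± 0.16). Of 6 tested creatine and adenylate kinases, which spread ATP through the cell, 3 were called higher at P15 and 4 at P30 against P0, including Ckb (1.09 ± 0.14 at P15) and Ak4 (2.17 ± 0.20 at P15).

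Calls among factors that build or regulate the chain were few and went both ways. Among all tested probe sets, 13.6% were called higher and 14.4% lower at P15 than at P0. At P30 against P0 these shares were 19.4% and 19.6%. Of 11 tested assembly factors, 1 was called higher at P15 (Cox17, the copper chaperone of complex IV, 1.62 ± 0.16), and 2 higher and 1 lower at P30 against P0 (Cox17 and Surf1 higher, Cox16 lower). Of 8 tested regulators of mitochondrial biogenesis, 2 were called higher at P15, Esrra, the oestrogen-related receptor alpha (1.16 ± 0.21), and Polrmt, the mitochondrial RNA polymerase (0.67 ± 0.18), and 1 lower, Gabpb1, the partner of Gabpa (-0.65 ± 0.17).

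Between genotypes, none of the 65 genes was called by limma over the 3 stages, and 0 had an unadjusted p under 0.05. Among all tested probe sets, 0 (0%) were called and 2.91% had an unadjusted p under 0.05. The median difference of Ts1Cje minus euploid was -0.03, against 0.00 for all tested probe sets, and 21 of the 65 genes were above 0, against 49.6% of all tested probe sets. The 5 genes with the smallest p were Ndufa2 (-0.24 ± 0.12; limma, adjusted p = 1), Ndufs4 (-0.25 ± 0.18), Atp5e, the epsilon subunit of the ATP synthase (-0.18 ± 0.13), Cox6a2 (0.36 ± 0.26) and Ndufb3 (-0.21 ± 0.15). Ndufa2 gave 180 and 209, 302 and 319, and 318 and 334 in the euploid pools and 183 and 177, 286 and 233, and 246 and 269 in the Ts1Cje pools, without overlap between the genotypes at P15 and P30 and with overlap at P0.

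No gene was called for a change of the genotype difference with postnatal day either, by limma, and 0 had an unadjusted p under 0.05 (0% and 2.59% of all tested probe sets). By the smallest p, the leading estimates over the 30 days were those of Atp5d (-0.68 ± 0.39), Cox4i1 (-0.69 ± 0.41), Cox8c (0.51 ± 0.37), Ndufa9 (0.56 ± 0.42) and Ndufc1 (-0.46 ± 0.36), each with an adjusted p of 1 by limma. A dimmer probe set for Cox4i1 gave 0.14 ± 0.51.

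The 2 members whose human counterparts lie on chromosome 21 but which are present in 2 copies in Ts1Cje, Ndufv3 (mouse chromosome 17) and Atp5j (mouse chromosome 16), gave differences of -0.16 ± 0.12 and 0.00 ± 0.11 between genotypes. Atp5o, the trisomic subunit outside the rule, gave 814 and 1025, 787 and 867, and 724 and 683 at P0, P15 and P30 in the euploid pools and 1118 and 1262, 1272 and 1535, and 976 and 1078 in the Ts1Cje pools. The Ts1Cje arrays of Atp5o were above the euploid ones at every stage, which none of the 12 tested complex V members showed. Atp5o was nevertheless not called between genotypes by limma, as no tested probe set was. The absence of calls among the members therefore does not exclude a difference of that size.

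Within each stage there was 1 pool against 1, so only values can be given. The pool mean was lower in Ts1Cje for 41 of 65 genes at P0 (47.6% of all tested probe sets), 31 at P15 (49.1%) and 49 at P30 (50.1%), and the median differences were -0.07, 0.01 and -0.11. At P30, 22 genes were lower and 6 higher without overlap between the pairs of arrays (19.8% and 19.6% of all tested probe sets). At P15, 7 were lower and 18 higher (18.5% and 21%), and at P0, 19 were lower and 10 higher (21.9% and 22.4%). Complex II gave the widest swing, with medians of -0.44, 0.18 and -0.17, and complex I followed with -0.09, 0.01 and -0.16.

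A difference of 1.5-fold or more without overlap was rare. It was seen at P0 for Uqcrc1, a core subunit of complex III, which was lower in Ts1Cje (1.54% of members, against 3.86% of all tested probe sets lower and 3.54% higher). At P15 it was seen for Cox6a2, higher, and Atp5pb, the b subunit of the peripheral stalk, lower (3.21% and 1.95% of all tested probe sets), both dim. At P30 it was seen for none (2.28% and 2.13%). With quantile normalisation Uqcrc1 no longer reached this size at P0, and the single gene that did was higher.

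**Figure D3:**
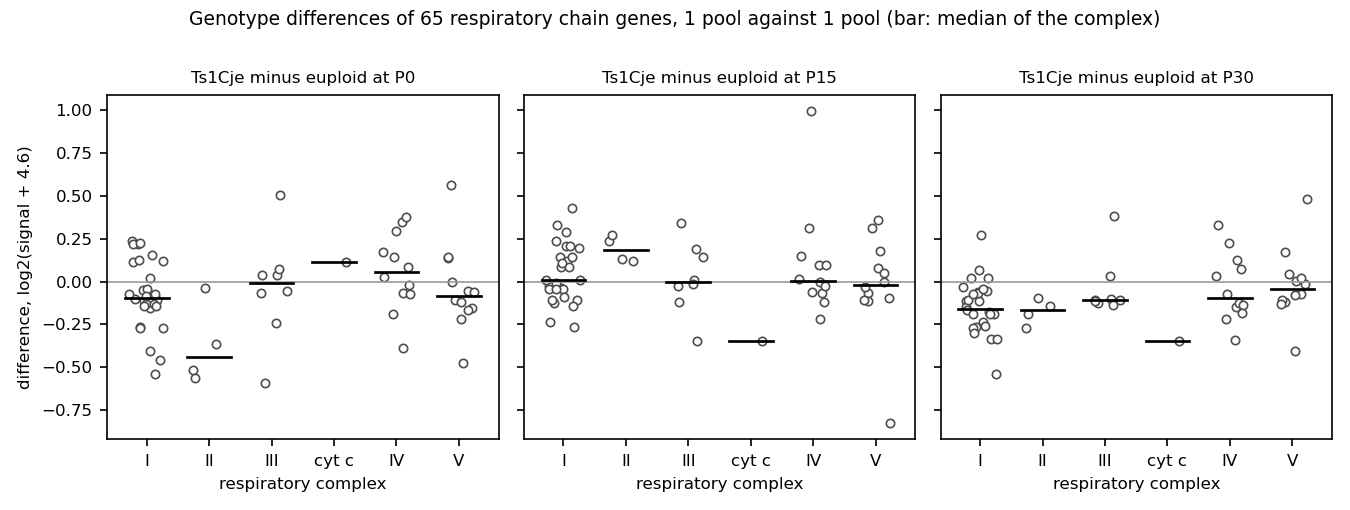
Differences in log2(signal + 4.6) of Ts1Cje minus euploid for the 65 tested genes (1 circle each) at each stage, by respiratory complex, with bars at the median of each complex; each stage compares 1 pool with 1 pool and has no test. The 65 genes have a median of -0.07 at P0, 0.01 at P15 and -0.11 at P30. The 4 genes of complex II lie below 0 at P0 and P30 and above 0 at P15.

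The direction of the genotype difference often changed with stage. For 18 of 65 genes (27.7%) the genotypes were apart without overlap in opposite directions at different stages, a share near the 24.2% of all tested probe sets. Ndufb8, Ndufs3, Sdhd, Uqcrc1 and Cox7a2l were lower in Ts1Cje at P0, higher at P15 and lower at P30 (7.69%, against 2.63% of all tested probe sets). Uqcrc1 gave 714 and 862, 633 and 624, and 944 and 887 in the euploid pools and 515 and 522, 750 and 851, and 800 and 878 in the Ts1Cje pools. Uqcrc2, its partner in the core of complex III, gave 583 and 589, 759 and 758, and 562 and 449 in the euploid pools and 847 and 818, 589 and 603, and 648 and 666 in the Ts1Cje pools. The genotype differences of the 2 core subunits thus had opposite signs at each stage: -0.59, 0.34 and -0.13 for Uqcrc1, and 0.50, -0.35 and 0.38 for Uqcrc2. The Uqcrc2 probe set is of a class (suffix f) whose probes can match related sequences, and the pattern of higher, lower and higher was found for it alone among the members (1.54%, against 1.62%).

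**Figure D4:**
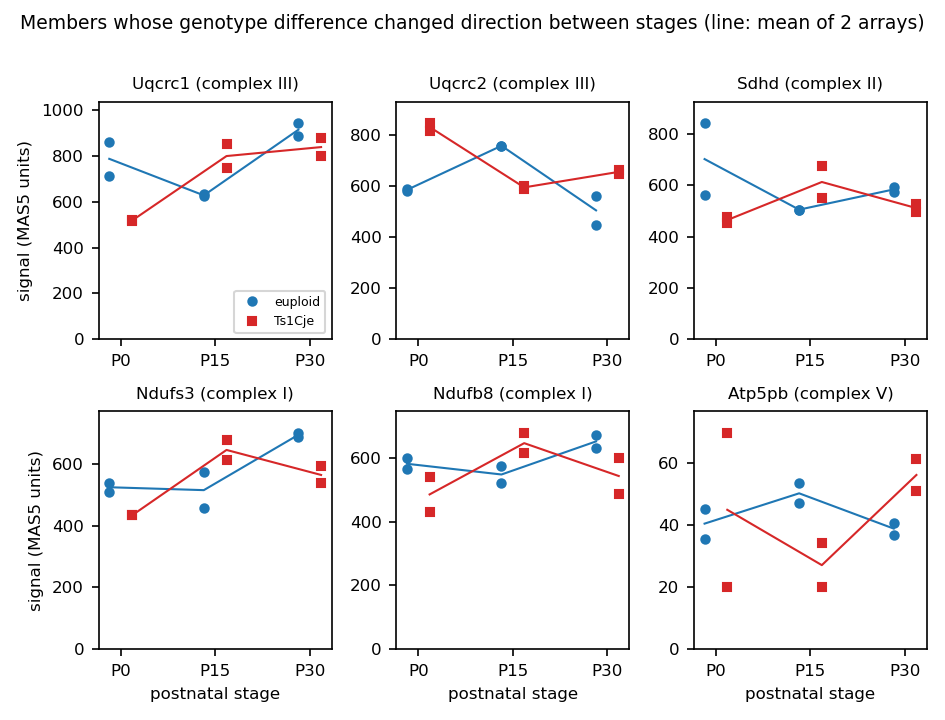
Signal in MAS5 units (vertical axis from 0) of 6 genes at P0, P15 and P30, with circles for the 2 arrays of each euploid pool, squares for those of each Ts1Cje pool, and lines through the pool means. The euploid and Ts1Cje lines cross between stages in each panel, and those of Uqcrc1 and Uqcrc2 cross in opposite directions.

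Some cell marker sums differed between genotypes, partly at single stages, and no marker was called between genotypes by limma. At P15 the summed signal of the 5 granule cell markers was 3890 to 4140 in Ts1Cje and 5000 to 5530 in euploid. That of 6 of 6 Purkinje cell markers was 6500 to 7060 and 8410 to 8430. At P0 the granule cell sum was 445 to 590 in Ts1Cje and 470 to 507 in euploid. The Purkinje cell sum was 853 to 986 and 747 to 750. At P30 the granule cell sum was 5910 to 6160 and 5500 to 6030. The Purkinje cell sum was 8380 to 8610 and 8110 to 8410. These sums were thus lower without overlap in Ts1Cje at P15 alone. The summed signal of the red blood cell markers, 3 of 4 of which passed the filter, was 2560 to 3430 in the Ts1Cje pools and 4520 to 8080 in the euploid pools, without overlap at any stage. The summed signal of 3 of 3 choroid plexus markers was 388 to 405 in euploid and 153 to 166 in Ts1Cje at P0, 147 to 149 and 156 to 179 at P15, and 789 to 800 and 976 to 1080 at P30. All 3 were called higher at P30 than at P15 by limma. The myelin sum was 6260 to 6410 in Ts1Cje and 5790 to 6050 in euploid at P15. At P30 it was 4930 to 5090 and 5240 to 5420. That of immature neurons was 6020 to 6230 and 5700 to 5750 at P15, and 3520 to 3540 and 3640 to 3810 at P30. Higher in Ts1Cje without overlap were the sums of granule cell progenitors at P0, endothelium at P0 and P30, and muscle at P15 and P30. The astrocyte sum was lower without overlap at P0. The part of these markers in the genotype and stage differences was not tested.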

How the data were processed

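Total RNA of individual frozen cerebella was extracted, pooled and made into biotinylated cRNA, per the labels' protocols. The deposited values are linear signal intensities that the authors made with MAS5, per the submitters' processing notes, and its version is not given in the sources used here. Trimmed means of 100.05 to 100.06 on every array show a shared scaling, and none was added. Values were transformed to log2(signal + 4.6), 4.6 being the 20th percentile. Probe sets whose mean fell below 20.1, the 40th percentile, and 66 controls were not tested. Gene symbols came from the platform annotation, and complexes were assigned by symbol.

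Both hybridisations of a pool were averaged, and limma 3.58.1 under R 4.3.3, using lmFit and eBayes with trend, was fitted to all 7453 probe sets with genotype and stage as terms (2 residual degrees of freedom, prior 6.39). Another model added genotype by day (1 residual degree of freedom, prior 9.51). Its estimates are changes over 30 days. All tests were two-sided. The labels tell of no separate litters, so p-values cover only the variation among these 6 pools, which may be technical, and their number limits the precision. With 1 pool per genotype and stage, the residual of the first model is each gene's change of the genotype difference with stage. Technical variation, differences between pools and any real change of that kind are mixed in it, and they enter the standard errors of stage and genotype alike. An exact permutation within stages cannot go under 0.25. The named genes were all called members for the stages and the 5 smallest p for genotype. The P15 peak, the sequence search and the genes with opposite directions were added after values were seen, and the members and lists were chosen with earlier results of these data known. Hybridisation numbers were not used to pair the pools in these fits, though some pools shared part of their hybridisation difference (correlations up to 0.354). Figures used matplotlib 3.10.9 in python 3.11.15. The code was tested on simulated data.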

Additional observations from a re-analysis of the deposited data

Results flagged for a closer look

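For 18 genes the genotypes were apart without overlap in opposite directions at different stages, against 24.2% of all tested probe sets. Changes to or from P15 were not tested, and for the changes from P0 to P30 the genotype by day model stands in. The values below are changes of the Ts1Cje minus euploid difference in log2 units.

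From P0 to P15 the difference changed by 0.96 for Ndufa9, an accessory subunit of complex I, and by 0.34 for Ndufb7. In the other complexes it changed by 0.83 for Sdhd, 0.94 for Uqcrc1 and -0.85 for Uqcrc2. Among ATP synthase genes it changed by 0.42 for Atp5g1 and 0.65 for Atp5g2, which encode the same ring subunit, and by 0.48 for Atp5mpl. A dimmer probe set for Atp5g1 was higher in Ts1Cje at both stages (0.22 at P0 and 0.51 at P15).

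From P15 to P30 the change was -0.46 for Ndufa3, -0.40 for Ndufaf1, -0.73 for Ndufb3, -0.50 for Ndufb8 and -0.63 for Ndufs3, all in complex I. For complex IV the change was -0.24 for Cox6b2 and -0.53 for Cox7a2l. A dimmer probe set for Ndufa3 went the other way, with differences of -0.12 at P15 and 0.18 at P30. One for Cox6b2 went the same way (0.64 and -0.76). The change was 1.31 for Atp5pb, a dim probe set whose Ts1Cje hybridisations at P0 gave 20.1 and 69.5. From P0 to P30 the change was -0.41 for Ndufb6 and -0.69 for Cox4i1, neither of them called in the genotype by day model (limma, adjusted p = 1 for both). A dimmer probe set for Cox4i1 was higher in Ts1Cje at both stages (0.141 at P0 and 0.285 at P30).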

How the results depend on the processing

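Alternatives were 2 other pseudocounts, 2 other filters, quantile normalisation, eBayes without its trend, each hybridisation alone, each pool left out and all 12 arrays with the pool as a random block. Called members at P15 against P0 numbered 13, and 4 to 12 with a pool left out, 7 and 11 with a single hybridisation. At P30 against P15 they numbered 0, up to 2 with a pool left out, and 2 without replicate 2. At P30 against P0 they numbered 11, and 2 to 16 with a pool left out, 3 and 16 with a single hybridisation, and 6 without the trend. With a replicate block the counts were 23 (22 higher, 1 lower), 7 (2 higher, 5 lower) and 17 (16 higher, 1 lower). Differences between the 2 hybridisations correlated between pools at -0.124 to 0.354 (15 pairs, median 0.0707), so some pools shared part of them. Genotype and day counts were 0 in every setting run; the day model could not be fitted with a pool left out.

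The P15 median of 0.27 was 0.20 without replicate 2 and between 0.19 (Ts1Cje P15) and 0.31 (euploid P15) with a pool left out. The P30 against P0 median of 0.17 was 0.24 with quantile normalisation, 0.11 without the euploid P30 pool and 0.21 without the Ts1Cje P30 pool. The P30 against P15 median of -0.03 lay between -0.11 and 0.02. Members at 1.5-fold within P0 numbered 1, but 0 with a pseudocount of 16, 2 without a filter, and 6 and 2 with a single hybridisation. Within P15 they numbered 2, but 4 without a filter, 0 with the 60th percentile filter and 1 with quantile normalisation. Within P30 they numbered 0, but 1 without a filter and 2 with either hybridisation. The P15 peak held for 22 genes, 19 and 14 with a single hybridisation and 41 in the Ts1Cje pools alone. The genotype difference of Cox6a2 was 1.08 without replicate 1 and reversed without replicate 2 (-0.37). Causes were not tested. Of values for single named genes, 91 lost their call and 384 kept side and direction. The 384 include values of the genes named for genotype and for genotype by day, which had no call to lose.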

Other observations

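Calls among other mitochondrial genes went in both directions between stages, as they did among all tested probe sets. Of all tested probe sets, 13.6% were called higher and 14.4% lower at P15 than at P0. At P30 against P0 these shares were 19.4% and 19.6%, and the shares of the ribosomal protein genes lay below them at both steps. Of 57 tested mitochondrial ribosomal protein genes, 4 were called higher and 2 lower at P15 than at P0 (median -0.11), and 4 higher and 7 lower at P30 than at P0 (median -0.05). Mrps25 rose by 0.82 ± 0.19 to P15, while Mrpl52 fell (-1.05 ± 0.16). Of 23 tested porins, carriers and import genes, 1 was called higher and 2 lower at P15, and 1 higher and 5 lower at P30 against P0. Timm17a and Timm17b, which encode alternative forms of a subunit of the inner membrane import channel, moved apart, at 0.85 ± 0.15 and -0.75 ± 0.15 at P15. The matrix chaperones Hspd1 and Hspe1 were lower at P30 than at P0 (-0.54 ± 0.14 and -0.80 ± 0.14).

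Of 6 tested mitochondrial antioxidant genes, Sod2, the matrix superoxide dismutase, rose to P15 (0.86 ± 0.24) and Txnrd2 fell (-1.04 ± 0.22). The shares of all tested probe sets given above stand beside these calls too. Of 4 tested fission and fusion genes, Mfn1, a mitofusin of the outer membrane, rose to P15 (0.59 ± 0.15) and was 0.80 ± 0.15 higher at P30 than at P0. No gene of these lists was called between genotypes by limma.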
